A study of Mus musculus with 4 samples.

Results

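The early and the late proximal tubule were compared in 2 uninjured mouse kidneys, 1 control and 1 with overexpression of human KLF6 (hKLF6 OE). The early segment was the unweighted mean of the clusters PT-S1-S2-1 and PT-S1-S2-2, and the late segment the unweighted mean of PT-S3-1, PT-S3-2 and PT-S3-3. A gene was kept when it differed the same way in both mice, by at least 0.2 on the log2(value + 1) scale. Of 19609 gene rows, 3913 had a mean of at least 0.5 in 1 or both segments of each mouse and were compared, and 1078 of these were kept (27.5%). There were 574 genes higher in early (14.7%) and 504 higher in late proximal tubule (12.9%), and 2835 met neither condition.

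The proximal tubule takes back most of what the glomerulus filters, and does so in consecutive segments named S1, S2 and S3. The early convoluted part carries high capacity uptake of glucose, amino acids, phosphate and bicarbonate, and makes glucose. The straight S3 part runs into the outer medulla, recovers what the early part left, and is rich in peroxisomes and in glutathione synthesis.

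The data were single nucleus RNA sequencing (snRNA-seq) of kidney cortex from 4 male mice of mixed strain, 1 mouse per condition, collected to study KLF6, a zinc finger transcription factor, in kidney injury. The control mouse carried the TRE-hKLF6 transgene alone, and the hKLF6 OE mouse carried CAG-rtTA and TRE-hKLF6, in which a broadly active promoter drives the doxycycline-dependent activator in all tissues. Per the methods of the study, both genotypes ate doxycycline diet, and animals without injury were given DMSO, whereas the labels give their treatment as none. The other pair of mice, 1 of each genotype, received the nephrotoxin aristolochic acid I (AAI) and enter only the last comparison. The transgene is human, its level was not analysed here, and so the genotype labels were not checked.

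A level here is the average, over the nuclei of 1 cluster in 1 mouse, of counts scaled to 10000 per nucleus, on a linear scale. Intronic reads were counted too, so long genes can collect more counts, and levels were compared between clusters and not between genes. The table holds neither counts nor numbers of nuclei, so the depth behind a value cannot be read from it and no counting interval can be given. The share of gene rows at exactly 0 was between 21.5% and 23.0% in the 4 early columns and between 15.1% and 23.1% in the 6 late columns. Each genotype has 1 mouse, and the clusters were made by the authors from these same values. No test was therefore possible, and every difference describes these mice. Throughout, early levels are given for PT-S1-S2-1 and then PT-S1-S2-2, and late levels for PT-S3-1, PT-S3-3 and then PT-S3-2. Differences are early minus late in log2(value + 1), so that a negative value means a higher level in late, and a pair of differences gives the control and then the hKLF6 OE mouse. A gene is called counted where it met the threshold in both mice. A gene group is read against the 14.7% and 12.9% of all compared genes. Both shares were larger with a minimum segment mean of 2, so they are a low yardstick for groups of abundant genes.

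The cluster names were held against segment markers. All 10 S1 and S2 markers were higher in early, and the median of their differences was 1.67 (control) and 1.60 (hKLF6 OE). Of 10 S3 markers, 7 passed the filter and all 7 were higher in late, with medians of -1.96 and -1.78. Slc5a1 and Serpina1f did not pass, and Slc22a13 was not analysed here. Of 5 general proximal tubule markers, 2 were higher in early, among them the phosphate cotransporter Slc34a1, and 3 were not counted. Of these 3, the transcription factor Hnf4a differed by 0.04 and 0.01, the endocytic receptor Lrp2 by 0.02 and -0.16 and its partner Cubn by -0.06 and -0.14. Markers of connecting tubule, principal cells, intercalated cells, podocytes, endothelium, stroma, macrophages and descending limb did not pass the filter, which must be met in both mice. Of these, Calb1 of the connecting tubule came closest, with early means of 0.456 and 0.603 in the control and hKLF6 OE mouse. The names early and late thus matched these markers, of which Cyp7b1, Slc22a19 and Serpina1f were high only in PT-S3-2. The authors had named the clusters from marker genes of the same nuclei, and the lists were chosen with these data known. The match is therefore not an independent check of the names.

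Differences were similar in both mice. Across the 3913 genes, Pearson's r of the difference in the control mouse with that in the hKLF6 OE mouse was 0.952, where genes are not independent replicates, and 83.3% had the same sign. Taken alone, the control mouse had 664 genes higher in early (17%) and 629 higher in late (16.1%), and the hKLF6 OE mouse had 738 (18.9%) and 571 (14.6%). The median over all compared genes was 0.00 in the control and 0.02 in the hKLF6 OE mouse. Each column is scaled to a total near 10000, so a balance near 0 follows from the scaling. A difference of at least 1, which is a doubling of value + 1, was reached in both mice by 39 genes in the early (0.997%) and 42 in the late direction (1.07%).

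**Figure D1:**
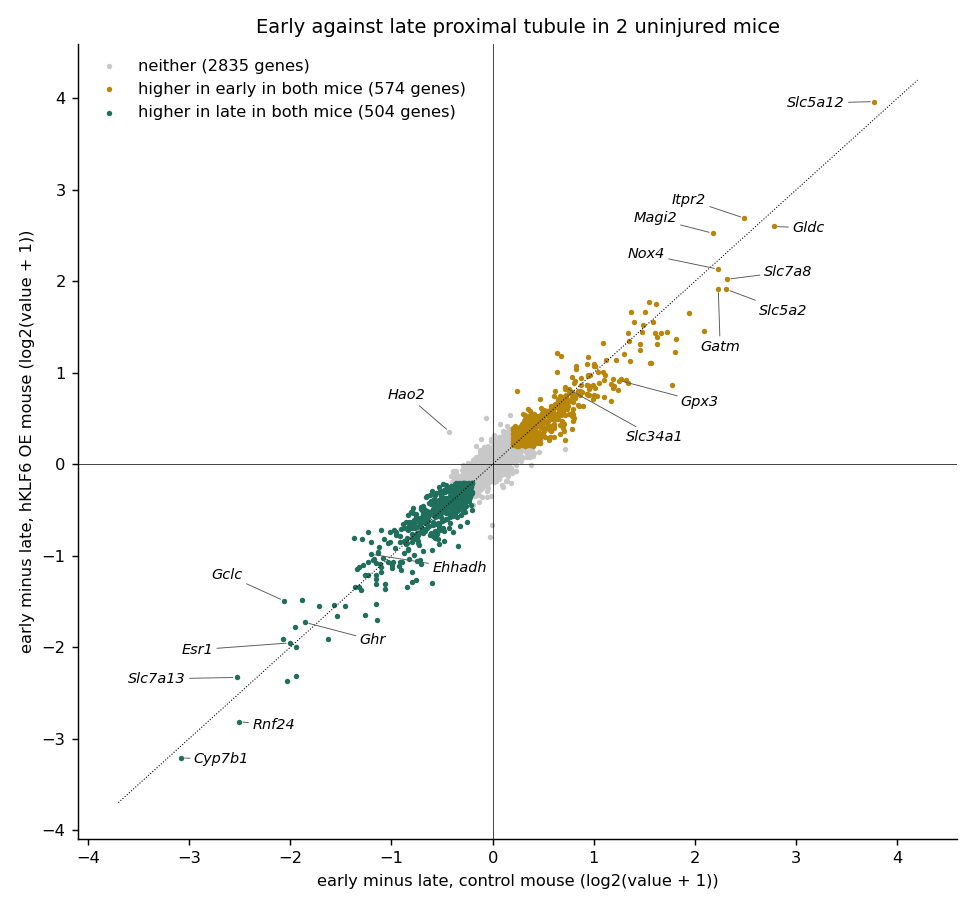
Difference between early and late proximal tubule of 3913 genes, each a point, in the control mouse (horizontal axis) and the hKLF6 OE mouse (vertical axis), both as log2(value + 1). The 574 genes higher in early lie at upper right and the 504 higher in late at lower left along the dotted line of equality, and Hao2 alone lies past 0.2 with opposite signs.

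Clusters within a segment did not carry the difference evenly. In 463 of the 574 genes higher in early, PT-S1-S2-1 had a higher level than PT-S1-S2-2 in both mice, and in 45 the order was reversed in both. The lead late cluster for these genes was PT-S3-1 in 329, PT-S3-2 in 50 and PT-S3-3 in 19. Of the 504 genes higher in late, 323 had their highest late cluster in PT-S3-2 in both mice, 64 in PT-S3-3 and 33 in PT-S3-1. Among the early clusters, 377 of these late genes were higher in PT-S1-S2-2 in both mice and 55 in PT-S1-S2-1.

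Every early cluster stood above every late cluster in both mice for 787 of the compared genes (20.1%), and below for 608 (15.5%). With the threshold on the difference added, 506 (12.9%) and 386 (9.86%) remained. Leaving out PT-S3-2, 381 of the 504 late genes were still counted, and leaving out PT-S1-S2-1, 352 of the 574 early genes were. Without PT-S3-1 or PT-S3-3, 484 and 475 late genes remained, and without PT-S1-S2-2, 554 early genes. At the edge of the threshold in the early direction, Tspan3 was just inside (0.20 and 0.25) and Prss8 just outside (0.20 and 0.29, the former just under 0.2), and in the late direction Gm26699 was just inside (-0.24 and -0.20) and Gm37240 just outside (-0.20 and -0.24).

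The 15 largest differences in the early direction, ordered by the smaller of the 2 mice, began with Slc5a12, the sodium-coupled monocarboxylate transporter that takes up lactate, which lies at chr2:110597298-110647779 (+ strand, GRCm38, ENSMUSG00000041644). Its level was 51.4 and 38.9 in the early clusters of the control mouse and 2.72, 1.51 and 2.92 in the late ones. The hKLF6 OE mouse had 55.8 and 44.8 against 2.59, 1.59 and 2.67. The segment means differed 18.9-fold and 22-fold, and no late cluster came near an early one. Gldc, the decarboxylase of the glycine cleavage system, was at 12.4 and 5.12 against 0.594, 0.247 and 0.412 in the control mouse and at 12 and 6.68 against 1.15, 0.414 and 0.562 in the hKLF6 OE mouse. Its level in PT-S1-S2-2 was well below that in PT-S1-S2-1, and its late levels were low in both mice.

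Itpr2, an endoplasmic reticulum calcium channel opened by inositol trisphosphate, was at 8.33 and 5.08 against 0.504, 0.154 and 0.465 in the control mouse and 10.0 and 6.45 against 0.621, 0.235 and 0.434 in the hKLF6 OE mouse. Nox4, the NADPH oxidase of the tubule that makes hydrogen peroxide, was at 37.1 and 21.9 against 7.51, 5.69 and 3.34 (control) and 37.8 and 21.5 against 8.56, 6.26 and 3.11 (hKLF6 OE). Nox4 thus declined in the order PT-S1-S2-1, PT-S1-S2-2, PT-S3-1, PT-S3-3, PT-S3-2 in both mice, without a gap between segments as wide as that of Slc5a12. Magi2, a scaffold protein of cell junctions, differed by 2.18 and 2.53. Adra1a, the alpha-1A adrenergic receptor, differed by 1.62 and 1.75, and Angpt1, a ligand of the endothelial receptor Tie2, by 1.49 and 1.52. Angpt1 read 3.07 and 1.28 in the early and 0.127, 0.134 and 0.129 in the late clusters of the control mouse, so its late level was close to 0. The membrane-bound carbonic anhydrase Car12 (1.54 and 1.77), the cytoskeletal proteins Epb41l3 (1.94 and 1.65) and Iqgap2 (1.5 and 1.66) and Auts2 (1.58 and 1.56) also ranked among the 15. The highest late cluster of Auts2 was PT-S3-2, at 7.69 and 7.67 in the control and hKLF6 OE mouse, as it also was for Slc5a12 and Abcc4.

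The late list began with Cyp7b1, an oxysterol hydroxylase (chr3:18071950-18243338, - strand, ENSMUSG00000039519). Its late levels were 0.322, 0.746 and 32 in the control mouse and 0.307, 1.22 and 37.1 in the hKLF6 OE mouse, against 0.466 and 0.379 (control) and 0.644 and 0.354 (hKLF6 OE) in the early clusters. The difference of -3.08 and -3.21 was therefore carried by PT-S3-2 alone, and PT-S3-1 did not stand above the early clusters. Without PT-S3-2 the differences were -0.11 and -0.23 and the gene was not counted. Slc7a13, an aspartate, glutamate and cystine transporter of the S3 brush border (chr4:19818725-19842218, + strand, ENSMUSG00000041052), was spread over the whole late segment. It was at 2.01 and 3.24 in the early and 13.5, 20.7 and 25.8 in the late clusters of the control mouse, and at 2.26 and 2.05 against 9.09, 13.9 and 21.7 in the hKLF6 OE mouse. All 3 late clusters exceeded both early ones in each mouse, by 7.6-fold and 6.9-fold between segment means.

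Ghr, the growth hormone receptor, rose from 24.2 and 34.7 in the early to 58.3, 84.9 and 183 in the late clusters of the control mouse, and from 22.1 and 34 to 62.6, 84.4 and 139 in the hKLF6 OE mouse. The rise was stepwise and PT-S3-2 was the highest of the 5 clusters in both mice. Esr1, estrogen receptor alpha, was at 0.0729 and 0.198 against 1.21, 3.16 and 6.3 (control) and at 0.154 and 0.317 against 1.75, 3.55 and 6.05 (hKLF6 OE). Chrm3, the M3 muscarinic receptor, differed by -1.95 and -2.0. Fgf1, a fibroblast growth factor without a secretion signal, was at 2.12 and 2.3 against 2.46, 5.03 and 26.4 in the control and 2.48 and 2.59 against 3.11, 6.07 and 40.5 in the hKLF6 OE mouse. PT-S3-1 hardly differed from the early clusters for Fgf1, and PT-S3-2 was the cluster that set it apart.

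Mat2a, which makes S-adenosylmethionine, was at 4.23 and 6.27 against 12.3, 14.1 and 25.1 in the control and 3.15 and 4.92 against 9.21, 11.28 and 24.1 in the hKLF6 OE mouse. Agps, a peroxisomal enzyme of ether lipid synthesis, was at 1.27 and 2.45 against 7.35, 7.52 and 7.54 (control) and 1.2 and 1.78 against 5.17, 5.69 and 7.8 (hKLF6 OE), with little difference among the late clusters of the control mouse. Tet2, which oxidizes 5-methylcytosine, differed by -1.63 and -1.91, the phospholipid flippase subunit Atp11a by -2.08 and -1.91, and the ring finger protein Rnf24 by -2.50 and -2.82. The transcript 4930533I22Rik, which the annotation classes as antisense, differed by -2.03 and -2.37. Whether strand was used in counting is not given in the sources used here, so its reads cannot be told apart from those of a gene on the other strand.

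**Figure D2:**
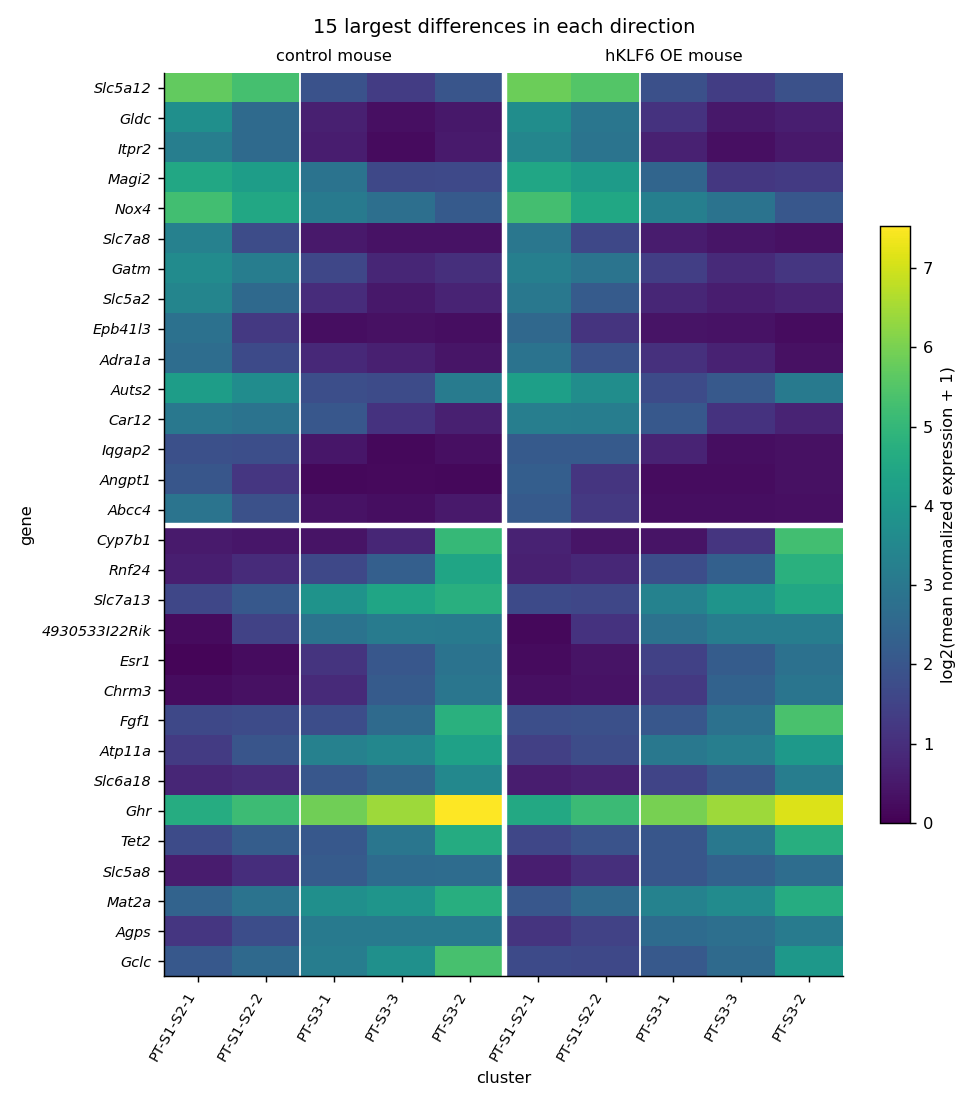
Levels of the 15 genes with the largest difference in each direction, as log2(mean normalized expression + 1), in the 5 proximal tubule clusters of the control mouse (left 5 columns) and the hKLF6 OE mouse (right 5 columns). The upper 15 genes are bright in the first 2 columns of each mouse, and the lower 15 brighten toward PT-S3-2, with Cyp7b1 in that column alone.

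Of the transporters of glucose, hexoses and monocarboxylates, 6 of 14 passed the filter, 3 were higher in early and 2 in late. Slc5a2, the high capacity sodium-glucose cotransporter SGLT2 (chr7:128265657-128272430, + strand, ENSMUSG00000030781), was at 9.65 and 4.92 in the early and 0.94, 0.40 and 0.667 in the late clusters of the control mouse. The hKLF6 OE mouse gave 7.02 and 3.46 against 0.749, 0.532 and 0.695. PT-S1-S2-1 had the highest level in both mice, and the late clusters did not fall in a fixed order. Slc2a2, the basolateral glucose exit transporter GLUT2, was at 2.23 and 1.62 against 0.679, 0.473 and 0.257 in the control and 1.72 and 0.98 against 0.619, 0.451 and 0.218 in the hKLF6 OE mouse, with a graded decline. The high affinity cotransporter of S3, Slc5a1 (SGLT1), did not pass the filter, with no level above 0.287 in the 10 columns.

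The sodium-coupled monocarboxylate transporters differed in direction. Slc5a12 was the early one, as described above, and Slc5a8, the high affinity sodium-coupled monocarboxylate transporter, was the late one. Slc5a8 was at 0.497 and 0.964 against 3.49, 5.21 and 5.37 in the control mouse and 0.542 and 1.0 against 3.05, 4.02 and 5.47 in the hKLF6 OE mouse. The segments did not overlap for either carrier in either mouse. Slc5a10, the mannose and fructose transporter SGLT5, was also higher in late (-1.11 and -0.71). Slc5a11, a sodium-coupled inositol transporter, differed by 0.00 and 0.18 and was not counted.

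**Figure D3:**
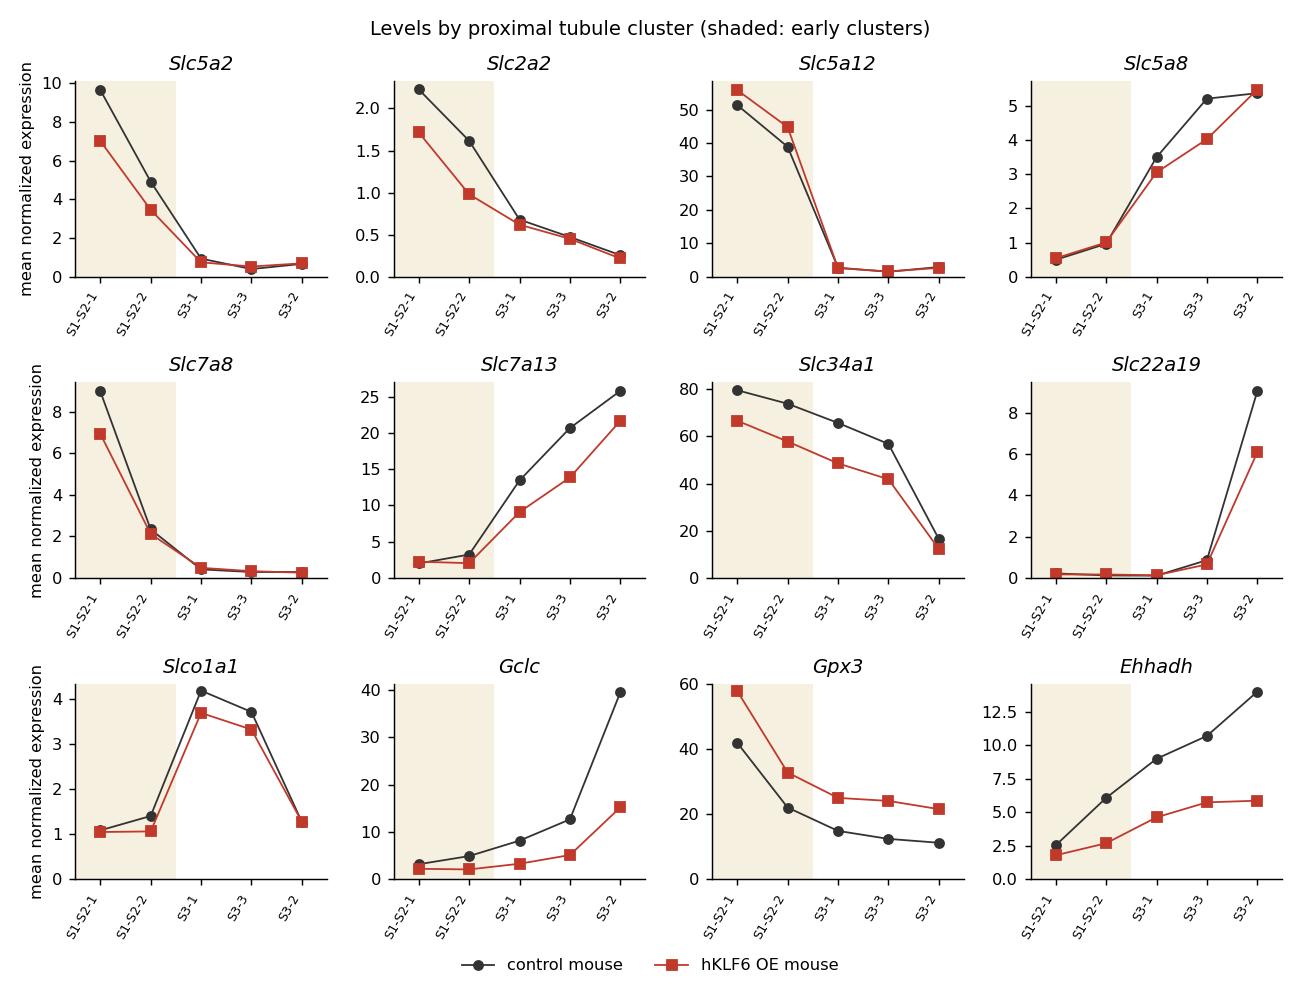
Level of 12 genes (mean normalized expression, linear axes starting at 0) in the 5 proximal tubule clusters of the control mouse (circles) and the hKLF6 OE mouse (squares), with the early clusters shaded. Slc5a12 drops between the segments while Slc5a8 rises, Slc34a1 falls mainly in PT-S3-2, Slc22a19 appears in PT-S3-2, and Slco1a1 is high in PT-S3-1 and PT-S3-3 and low in PT-S3-2.

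Amino acid transporters divided almost evenly, with 9 of the 20 that passed higher in early and 8 higher in late. Both shares were above those of all compared genes, in a list chosen with earlier results of these data known. The medians were 0.10 and 0.16. The early members included both sides of the cell. Slc6a19, the apical carrier of neutral amino acids, was at 5.6 and 3.81 against 1.03, 0.469 and 0.674 in the control mouse and 4.23 and 2.94 against 0.954, 0.537 and 0.568 in the hKLF6 OE mouse. On the basolateral side, the exchanger Slc7a8 was at 8.98 and 2.34 against 0.417, 0.292 and 0.29 (control) and 6.94 and 2.12 against 0.492, 0.331 and 0.258 (hKLF6 OE), and was the gene of this group with the steepest drop already within the early segment. Slc7a7, which exports cationic amino acids, differed by 1.81 and 1.37, the aromatic amino acid carrier Slc16a10 by 1.56 and 1.11 and Slc43a2, which carries large neutral amino acids, by 1.45 and 1.32. Tmem27, known as collectrin and needed for apical amino acid carriers, differed by 0.57 and 0.58.

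The late amino acid carriers were other family members for related substrates. Slc6a18, a carrier of glycine and other neutral amino acids, was at 0.737 and 0.888 against 3.09, 4.59 and 10.4 in the control and 0.514 and 0.633 against 1.93, 3.15 and 8.09 in the hKLF6 OE mouse. Slc1a4 (-0.79 and -0.65), a carrier of alanine, serine and cysteine, and the glutamate carrier Slc1a1 (-0.44 and -0.45) were higher in late too. The cystine carrier subunits went different ways: Slc7a9, the transporting subunit, was higher in early (0.69 and 0.58), and Slc3a1, the heavy subunit that it shares with Slc7a13, was higher in late (-0.37 and -0.52). Slc3a1 was at 2.35 and 2.06 against 2.42, 2.51 and 4.49 in the control mouse, so its late excess came from PT-S3-2. Without that cluster, 10 of 18 amino acid carriers were higher in early and 4 in late, and Slc3a1, Slc6a13, Slc6a20a and Slc15a2 were no longer counted.

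Carriers of phosphate, sulfate, dicarboxylates, protons and bicarbonate were mostly early, with 11 of 19 higher in early, 1 in late and medians of 0.32 and 0.33. Slc4a4, the basolateral sodium bicarbonate cotransporter NBCe1, was at 27.5 and 21.8 against 16.6, 13.8 and 6.8 in the control and 21.2 and 17.4 against 13.8, 11.8 and 4.87 in the hKLF6 OE mouse. Slc34a1, the main apical phosphate cotransporter NaPi-IIa, was at 79.5 and 73.8 against 65.6, 56.8 and 16.6 (control) and 66.6 and 57.8 against 48.5, 41.8 and 12.3 (hKLF6 OE). Both were lowest in PT-S3-2, and for Slc34a1 the other late clusters lay much closer to the early ones. Slc34a3, the second phosphate cotransporter NaPi-IIc, was more restricted, at 1.7 and 0.521 against 0.0957, 0.0654 and 0.107 in the control mouse and 1.33 and 0.393 against 0.121, 0.0588 and 0.117 in the hKLF6 OE mouse. PT-S1-S2-1 was its highest cluster and all late levels were close to 0.

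The sodium proton exchanger Slc9a3 (NHE3) was at 2.53 and 2.22 against 1.93, 1.29 and 0.295 in the control and 2.5 and 2.29 against 1.96, 1.38 and 0.196 in the hKLF6 OE mouse, again with PT-S3-2 far below the rest. Carbonic anhydrases Car2 (0.58 and 0.60) and Car14 (0.44 and 0.34), sulfate carriers Slc13a1 (0.59 and 0.63) and Slc26a1 (0.32 and 0.33), and the sodium pump subunits Atp1b1 (0.21 and 0.27) and Fxyd2 (0.40 and 0.43) were higher in early. The exception was Slc9a8 (NHE8), at 1.38 and 1.49 against 1.75, 1.86 and 5.95 in the control and 1.31 and 1.37 against 1.7, 2.3 and 6.96 in the hKLF6 OE mouse. With PT-S3-2 left out, 9 of 19 of the group were higher in early and 3 in late, since Slc26a1 and Atp1b1 dropped out and Car4 and Slc13a3 came in as late.

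Organic anion transporters were mostly late, with 11 of 15 higher in late (73.3% of those that passed), 1 in early and medians of -0.83 and -0.74. Without PT-S3-2 the count was 10 of 13. Slco1a6, an organic anion transporting polypeptide, was at 3.4 and 9.88 against 13.3, 15.9 and 15.8 in the control mouse and 2.93 and 7.44 against 13.5, 15.4 and 15.7 in the hKLF6 OE mouse. Slc22a30, an orphan member of the SLC22 family, was at 3.12 and 7.23 against 11, 12.5 and 10.5 (control) and 2.25 and 5.42 against 8.9, 10.4 and 9.68 (hKLF6 OE). In both, PT-S1-S2-2 lay between PT-S1-S2-1 and the late clusters. Slc22a19 was late through PT-S3-2, at 0.116, 0.868 and 9.04 in the late clusters of the control and 0.135, 0.662 and 6.09 of the hKLF6 OE mouse, and Slco1a1 through the other late clusters, at 4.18, 3.71 and 1.27 and 3.68, 3.32 and 1.28. For Slco1a1, PT-S3-2 fell within the early range in the control mouse, where the early clusters were at 1.08 and 1.4. Close copies exist of the Slco1a and Slc22a genes, and reads shared between copies make these levels less certain.

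Slc10a2, the sodium-dependent bile acid carrier, was higher in late (-1.23 and -0.74), as were the urate carrier Slc22a12 (URAT1, -0.40 and -0.41) and Slc22a7 (OAT2, -0.83 and -1.04). The classical basolateral secretory carriers were not late by this measure. Slc22a6 (OAT1) was at 1.27 and 2.07 against 3.1, 2.37 and 0.97 in the control and 1.75 and 2.39 against 2.84, 2.47 and 1.17 in the hKLF6 OE mouse, and Slc22a8 (OAT3) was at 2.71 and 3.48 against 2.75, 1.37 and 0.589 (control) and 2.3 and 3.08 against 2.08, 1.1 and 0.611 (hKLF6 OE). For both genes PT-S3-2 was the lowest cluster in each mouse. Slc22a8 was counted as early, with an overlap of PT-S3-1 and PT-S1-S2-1 in the control mouse, and Slc22a6 overlapped in both mice and was not counted. Without PT-S3-2, Slc22a6 differed by -0.49 and -0.25 and was counted as late, whereas Slc22a8 stayed early (0.42 and 0.51).

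Among 5 carriers of organic cations and carnitine, 1 was higher in early and 1 in late, Slc22a2 (OCT2, -0.38 and -0.27). The 3 that were not counted included the apical exporter Slc47a1 (MATE1, -0.21 and -0.18). Of the ABC efflux pumps, Abcc4 (MRP4) was higher in early, at 6.52 and 2.63 against 0.294, 0.214 and 0.419 in the control and 3.36 and 1.36 against 0.221, 0.218 and 0.232 in the hKLF6 OE mouse. The early level in the hKLF6 OE mouse was the lower of the pair while the late level was close to 0 in both. Abcc2 (MRP2) was higher in late (-0.56 and -0.32) and Abcg2 (BCRP) was not counted (-0.02 and -0.03).

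Genes of endocytosis and the lysosome were early or not counted, with 7 of 13 higher in early, none in late and medians of 0.30 and 0.29. The adaptor Dab2 was at 53.8 and 55.4 against 42.1, 38 and 12.5 in the control and 35.5 and 43.4 against 39.4, 33.6 and 9.61 in the hKLF6 OE mouse. Its segments overlapped in the hKLF6 OE mouse, PT-S3-2 was its low cluster, and without that cluster it was not counted. The lysosomal proteases Lgmn (0.76 and 0.55), Ctsl (0.51 and 0.37) and Ctsb (0.36 and 0.35), the membrane protein Lamp1 (0.31 and 0.37), the proton pump subunit Atp6v0a4 (0.45 and 0.49) and the cubilin partner Amn (0.30 and 0.29) were also higher in early, whereas Lrp2 and Cubn, the receptors themselves, were not counted. Without PT-S1-S2-1, 4 of 13 were early, and Ctsb, Lamp1 and Atp6v0a4 were no longer counted. Brush border hydrolases went the other way, with 3 of 5 higher in late. Mep1b, a meprin subunit, was at 0.24 and 0.153 against 0.273, 1.21 and 4.72 (control) and 0.375 and 0.144 against 0.297, 0.925 and 5.38 (hKLF6 OE), with the other meprin subunit Mep1a (-0.81 and -0.52) and the gamma-glutamyl transferase Ggt1 (-0.34 and -0.21) beside it.

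Gluconeogenic and fructose genes were early in 4 of 9 and late in none, with medians of 0.32 and 0.24. G6pc, which releases glucose from glucose-6-phosphate, was at 11.7 and 10.3 against 9.84, 6.48 and 2.41 in the control and 6.0 and 4.93 against 4.21, 2.94 and 1.29 in the hKLF6 OE mouse. Its level in PT-S3-1 was close to that of the early clusters and PT-S3-2 was lowest. The lactate dehydrogenase subunit Ldhb (0.45 and 0.46) and the glucose-6-phosphate carrier Slc37a4 (0.32 and 0.24) were also higher in early. Pck1, the cytosolic PEPCK, was at 3.63 and 4.12 against 5.01, 4.23 and 3.1 in the control mouse and 11 and 13.2 against 10.4, 8.45 and 5.86 in the hKLF6 OE mouse. The segments differed for Pck1 only in the hKLF6 OE mouse, so it was not counted. None of 4 glycolysis genes and none of 6 genes of ammonia and glutamine metabolism were counted.

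Genes of fatty acid oxidation were listed by organelle. The mitochondrial list also held genes of fatty acid activation and regulation, and its medians were -0.03 and 0.01. In it, 2 of 10 genes were higher in early and 1 in late, shares near those of all compared genes. Those in early were Acsl1, a long chain acyl-CoA synthetase (0.93 and 0.77), and Ppara, the transcription factor of lipid oxidation (0.70 and 0.46), and the late one was the medium chain dehydrogenase Acadm (-0.73 and -0.68), which PT-S3-2 carried. In peroxisomes, 8 of 15 were higher in late (53.3%), 2 in early, and the medians were -0.31 and -0.27. Ehhadh, the peroxisomal bifunctional enzyme, was at 2.54 and 6.08 against 9.0, 10.7 and 14 in the control and 1.8 and 2.7 against 4.63, 5.75 and 5.87 in the hKLF6 OE mouse, a graded rise in both with lower levels in the latter. Slc27a2, a very long chain acyl-CoA synthetase, was at 8.86 and 14.1 against 21.6, 23.1 and 29 (control) and 8.37 and 11.6 against 18.2, 20.8 and 27.5 (hKLF6 OE). The carnitine octanoyltransferase Crot (-1.13 and -0.96), the acyl-CoA oxidases Acox2 (-0.69 and -0.95) and Acox3 (-0.31 and -0.44), the thiolase Acaa1b (-0.40 and -0.33) and the transporter Abcd3 (-0.30 and -0.27) were late too. The early peroxisomal genes were Dao, D-amino acid oxidase (0.27 and 0.31), and Hsd17b4 (0.23 and 0.28).

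Enzymes of amino acid catabolism, a list that also held enzymes of creatine synthesis and inositol oxidation, were early in 9 and late in 7 of 25. Gatm, the first enzyme of creatine synthesis, was at 11.34 and 8.06 against 2.06, 0.762 and 1.02 in the control and 8.54 and 6.48 against 1.62, 0.874 and 1.28 in the hKLF6 OE mouse. The hydroxyproline oxidase Prodh2 (1.67 and 1.43), the proline oxidase Prodh (0.87 and 0.81), inositol oxygenase Miox (0.66 and 0.75) and kynureninase Kynu (0.51 and 0.46) were higher in early. The late ones included enzymes of sulfur amino acids, namely Csad (-0.80 and -0.63) and Cdo1 (-0.43 and -0.70) of taurine synthesis and cystathionine beta-synthase Cbs (-0.35 and -0.57), with the dimethylglycine dehydrogenase Dmgdh (-0.64 and -0.57). Bcat1, the cytosolic branched-chain aminotransferase, was at 0.035 and 0.0306 against 0.035, 0.0231 and 1.63 in the control and 0.0743 and 0.0707 against 0.0312, 0.0619 and 4.8 in the hKLF6 OE mouse, and so was present in PT-S3-2 alone. Without PT-S3-2, 8 of 22 were early and 4 late, and Bcat1, Cbs and Cdo1 were among those lost.

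Of 13 cytochrome P450 genes that passed, 4 were higher in late and none in early, with medians of -0.09 and -0.09. Beside Cyp7b1 these were the arachidonic acid epoxygenase family member Cyp2j11, at 0.832 and 1.42 against 1.6, 2.42 and 3.77 in the control and 1.18 and 1.8 against 2.11, 3.04 and 4.72 in the hKLF6 OE mouse, the fatty acid omega-hydroxylase Cyp4a10 (-0.47 and -0.44) and Cyp2d9 (-0.45 and -0.43). Conjugating enzymes were late in 9 and early in 5 of 21. Acsm3, a medium chain acyl-CoA synthetase, was at 0.931 and 1.3 against 4.62, 4.32 and 5.57 (control) and 1.24 and 1.3 against 4.7, 4.65 and 7.58 (hKLF6 OE), and the segments did not overlap. The glycine N-acyltransferase Glyat (0.49 and 0.58) and the glutathione transferases Gstt1 (0.37 and 0.58) and Gsta2 (0.66 and 0.43) were early, the last through PT-S1-S2-1 alone. Members of the Cyp2j, Cyp4a, Acsm and Gst families have close copies, with the same limit as above.

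Glutathione genes were late in 4 and early in 2 of 10. The enzymes of synthesis were late: Gclc, the catalytic subunit of the rate-limiting ligase, was at 3.19 and 4.92 against 8.18, 12.7 and 39.5 in the control and 2.22 and 2.09 against 3.3, 5.13 and 15.2 in the hKLF6 OE mouse. Its modifier subunit Gclm was at 2.32 and 2.28 against 2.81, 3.57 and 4.4 (control) and 1.97 and 1.61 against 2.38, 2.63 and 3.79 (hKLF6 OE), and the synthetase Gss differed by -0.91 and -0.85. Among the peroxidases, Gpx3, a secreted peroxidase made by the kidney, was at 42 and 22.1 against 14.9, 12.5 and 11.25 (control) and 57.9 and 32.9 against 25.1, 24.1 and 21.6 (hKLF6 OE), and Gpx1 (0.31 and 0.28) was early too, whereas Gpx4 was not counted (0.10 and 0.29). Gclc rose and Gpx3 fell stepwise through PT-S3-1 and PT-S3-3 to PT-S3-2 in both mice. Nfe2l2, which encodes the regulator NRF2, differed by -0.02 and 0.00 and its target Txnrd1 by -0.08 and 0.00, and neither was counted. Ggt1, which cleaves glutathione outside the cell, was the remaining late gene.

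**Figure D4:**
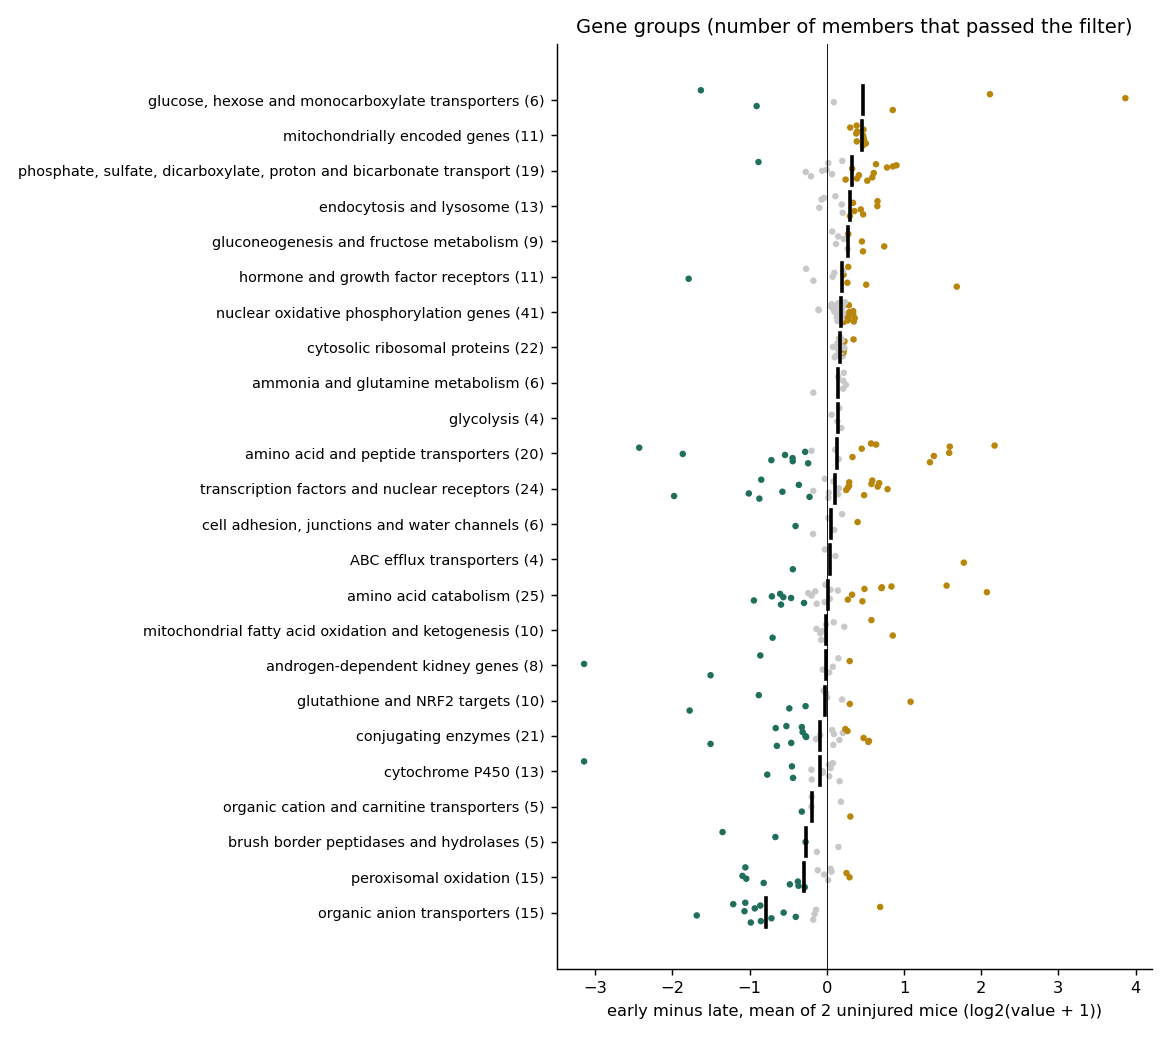
Difference between early and late for the members of 24 gene groups that passed the filter, as the mean of the 2 uninjured mice in log2(value + 1), with 1 point per gene and a black bar at the mean of the medians in the 2 mice. Gold points were higher in early, green in late and grey not counted, and the bar moves from organic anion transporters and peroxisomal oxidation on the late side to phosphate transport, mitochondrially encoded genes and glucose transport on the early side.

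Of 24 transcription factors and nuclear receptors, 10 were higher in early and 7 in late. The largest early difference was that of Maf, a bZIP factor, at 7.83 and 6.59 against 5.24, 4.59 and 1.81 in the control and 7.32 and 6.0 against 4.43, 4.01 and 1.58 in the hKLF6 OE mouse. The mitochondrial regulators Ppargc1a (0.64 and 0.71) and Esrra (0.48 and 0.48), the mineralocorticoid receptor Nr3c2 (0.69 and 0.62) and Tfcp2l1 (0.59 and 0.58) were early with it. After Esr1, the late factors included the thyroid hormone receptor Thrb (-0.92 and -0.79), Hnf4g (-0.69 and -0.46), Pax8 (-0.31 and -0.41) and Emx2 (-0.22 and -0.23). Without PT-S3-2, 7 were early and 5 late, and Pax8, Emx2, Rora, Nr3c1 and Klf9 were not counted.

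Hormone and growth factor receptors were early in 5 and late in 1 of 11, the late one being Ghr. After Adra1a, the largest early difference was that of Agtr1a. Agtr1a, the angiotensin II type 1a receptor, was at 0.93 and 1.02 against 0.544, 0.387 and 0.321 in the control and 1.07 and 0.931 against 0.539, 0.298 and 0.283 in the hKLF6 OE mouse. The parathyroid hormone receptor Pth1r (0.34 and 0.21) and Egfr (0.20 and 0.33) were close to the threshold, and without PT-S3-2 only 2 of 10 were early. Androgen-dependent kidney genes were late in 3 of 8, namely Cyp7b1, Acsm3 and Slco1a1, and early in 1, Kap, whose excess lay in PT-S1-S2-1, at 75.6 and 52.3 against 50.7, 50.7 and 52.9 in the control and 113 and 76.4 against 75.1, 77 and 80.7 in the hKLF6 OE mouse. Both mice were male. Of vitamin carriers, Slc23a1, which takes up vitamin C, was late (-0.37 and -0.53) through PT-S3-2. Adhesion, junction and water channel genes were early in 1 of 6 (Cdh16, 0.47 and 0.33) and late in 1 (Cdh1, -0.39 and -0.43).

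All 11 mitochondrially encoded genes that passed were higher in early, with medians of 0.42 and 0.48. The largest difference was that of mt-Co1, a subunit of cytochrome c oxidase (0.50 and 0.51). As a share of all expression they made up 2.24% in PT-S1-S2-1 and 1.63% in PT-S1-S2-2 of the control mouse, and between 1.32% and 1.44% in its late clusters. Shares in the hKLF6 OE mouse were 3.17% and 2.32% against 1.86% to 1.98%. Nuclear genes of oxidative phosphorylation, a list that also holds assembly factors, were early in 13 of 41 and late in none, led by the ATP synthase subunit Atp5b (0.34 and 0.35). Cytosolic ribosomal proteins were early in 4 of 22 and late in none, led by Rps29 (0.32 and 0.37). The ribosomal early share of 18.2% was near the 14.7% of all compared genes. Without PT-S1-S2-1, 4 of 11 mitochondrially encoded genes, none of 40 nuclear genes of oxidative phosphorylation and none of 9 ribosomal protein genes were counted, and none was late. The mitochondrially encoded genes kept medians of 0.20 and 0.25 without that cluster, and for all 11 both early clusters stood above every late cluster in both mice.

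Markers of other nephron segments moved in the same cluster. Of 3 ascending limb markers, Slc12a1 and Umod passed and were higher in early (Slc12a1 0.21 and 0.27, Umod 0.42 and 0.42) and Cldn16 did not exceed 0.0250. Their summed level was 6.94 in PT-S1-S2-1, 4.39 in PT-S1-S2-2 and 3.98 to 4.17 in the late clusters of the control mouse, and 9.71, 5.72 and 5.24 to 5.96 in the hKLF6 OE mouse. Slc12a3 of the distal convoluted tubule differed by 0.29 and 0.27, and neither it nor the ascending limb pair was counted without PT-S1-S2-1. Their highest levels in other clusters, such as 217 and 201 for Slc12a1, were far above those here. Summed markers of connecting tubule and principal cells, intercalated cells, podocytes, endothelium and macrophages, all low, were also highest in PT-S1-S2-1 in both mice. The endothelial sum was 0.631 there against 0.339 to 0.421 in the other proximal tubule clusters of the control mouse. In the hKLF6 OE mouse it was 0.874 against 0.304 to 0.474. Stromal and descending limb sums did not peak there in the control mouse. The part of free RNA or of other cells in the difference of PT-S1-S2-1 was not tested. Injury markers gave no common direction: Spp1 (0.45 and 0.51) and Jun (0.49 and 0.44) were early, Il34 (-0.84 and -0.56) was late, Krt20 was listed at 0 in all 10 columns, and Havcr1 did not exceed 0.0451.

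Genes whose profile over the 10 columns followed Slc5a2 most closely included, by Pearson's r of log2(value + 1), Prodh2 (0.997), Ttc28 (0.996), Cdk18 (0.994) and Slc6a19 (0.992). Those closest to Slc7a13 were Slc1a4 (0.988), Slc5a8 (0.987), Usp20 (0.986), Ivd (0.986) and Bhmt2 (0.985). The 10 columns share 2 libraries and the clustering, so these values only rank profiles.

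Position and length were not used to choose the genes. The genomic span in the GRCm38 annotation had a median of 70.8 kb in the 569 early genes that have one and 65.1 kb in 500 late genes. Both medians were above the 57.1 kb of all 3877 genes, which include these sets. The lower quartiles were 22.6 kb in early, 29.5 kb in late and 27.65 kb in all genes, so the early set was not longer at its short end. Levels of long genes gain from intronic reads, and the median of the larger segment mean in the control mouse was 1.83, 1.98 and 1.17 in the same order. Genes that are not protein coding numbered 12, 32 and 81. Most such genes among the 1078 were thus in the late set.

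Promoter sequences from RefSeq (GRCm38.p6), from 250 bases before to 50 after the start, were matched by symbol for 304 of the 574 early and 285 of the 504 late genes. Fewer than 80% had one, so shares of motifs were not compared between the sets. The letters GTTAATNAT, bound by the HNF1 homeobox factors, and CAAAGTCCA, bound by HNF4, were searched on both strands, and the 2 do not overlap as words. Of all 22862 promoters with a unique symbol, 0.875% held the first and 0.486% the second. Among members of the gene groups above that were counted as early or late, 6 promoters held a match, and they are printed 5′ to 3′ on the strand of the gene with the match in capitals, to show the sequence beside the levels. HNF1 letters were found in Prodh2 (chr7:30493408-30493707, + strand), G6pc (chr11:101367466-101367765, + strand), Atp6v0a4 (chr6:38124537-38124836, - strand), which were early, and Slc10a2 (chr8:5105238-5105537, - strand), which was late. HNF4 letters were found in Slc3a1 (chr17:85028097-85028396, + strand) and Aadat (chr8:60505874-60506173, + strand), both late. A match describes these letters and is not a binding site.
Prodh2: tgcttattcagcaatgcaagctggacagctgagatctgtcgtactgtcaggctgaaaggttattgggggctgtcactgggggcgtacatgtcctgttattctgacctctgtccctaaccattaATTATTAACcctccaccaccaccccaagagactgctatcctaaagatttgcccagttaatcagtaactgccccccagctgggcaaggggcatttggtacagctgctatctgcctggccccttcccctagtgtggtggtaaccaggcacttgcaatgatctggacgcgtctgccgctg
G6pc: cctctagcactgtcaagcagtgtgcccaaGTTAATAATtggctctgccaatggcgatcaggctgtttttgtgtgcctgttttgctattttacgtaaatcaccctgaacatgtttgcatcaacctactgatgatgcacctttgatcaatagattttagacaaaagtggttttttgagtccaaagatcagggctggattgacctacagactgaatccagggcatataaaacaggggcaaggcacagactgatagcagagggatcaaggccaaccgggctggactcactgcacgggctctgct
Atp6v0a4: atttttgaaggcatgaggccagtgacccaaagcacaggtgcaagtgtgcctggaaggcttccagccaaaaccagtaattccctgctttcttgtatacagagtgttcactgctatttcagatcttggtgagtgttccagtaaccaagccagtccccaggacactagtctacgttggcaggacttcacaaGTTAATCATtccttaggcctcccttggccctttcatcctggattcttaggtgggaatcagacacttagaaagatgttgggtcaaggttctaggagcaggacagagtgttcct
Slc10a2: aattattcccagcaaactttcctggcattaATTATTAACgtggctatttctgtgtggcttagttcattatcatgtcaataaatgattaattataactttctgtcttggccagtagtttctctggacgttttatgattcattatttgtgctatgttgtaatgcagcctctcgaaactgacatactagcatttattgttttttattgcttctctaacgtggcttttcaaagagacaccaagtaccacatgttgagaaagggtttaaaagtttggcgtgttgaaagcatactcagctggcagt
Slc3a1: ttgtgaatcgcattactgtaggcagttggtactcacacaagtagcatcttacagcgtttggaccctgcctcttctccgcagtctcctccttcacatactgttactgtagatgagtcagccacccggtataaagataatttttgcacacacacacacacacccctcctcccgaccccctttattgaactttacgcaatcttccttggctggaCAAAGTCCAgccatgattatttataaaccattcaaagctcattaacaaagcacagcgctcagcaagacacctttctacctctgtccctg
Aadat: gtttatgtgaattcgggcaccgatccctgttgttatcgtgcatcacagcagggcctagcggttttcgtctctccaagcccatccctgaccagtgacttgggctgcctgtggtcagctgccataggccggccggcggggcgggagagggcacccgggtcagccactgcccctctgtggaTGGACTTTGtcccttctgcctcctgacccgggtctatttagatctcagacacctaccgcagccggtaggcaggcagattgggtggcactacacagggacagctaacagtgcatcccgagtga

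Between the 2 uninjured mice, the segment difference varied by at least 0.5 in 17 genes. Clec2h, a C-type lectin, differed by 1.78 and 0.87 in the control and hKLF6 OE mouse, with an early mean of 9.16 and 1.85. Gclc (-2.06 and -1.49), Abcc4 (2.09 and 1.46), Bcat1 (-0.60 and -1.29) and Pck1 (-0.07 and 0.51) have been given above. Itgb6, an integrin subunit, differed by -0.03 and -0.80, and Mylk, a myosin light chain kinase, by -0.01 and -0.66, both with a difference in the hKLF6 OE mouse alone. Hao2, a peroxisomal hydroxyacid oxidase, was the only gene past the threshold with opposite signs (0.0256% of those compared). It was at 0.88 and 0.89 against 1.06, 2.04 and 1.51 in the control mouse and 1.6 and 2.55 against 1.36, 1.56 and 1.28 in the hKLF6 OE mouse. Genotype and animal cannot be told apart, since each genotype has 1 mouse.

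The same clusters were then compared in the AAI-treated mice, which the choice of genes did not use. The clusters had been made on nuclei of all 4 mice together, so this is a description and not a test. Per the study, kidneys were taken the day after a single AAI injection. It reports separate injured proximal tubule clusters, almost only with AAI, alongside fewer PT-S3 cells. Those injured clusters were not part of this comparison, which covers only nuclei that still grouped with the clusters named early and late. Of the 574 early genes, 501 (87.3%) in the control mouse with AAI and 499 (86.9%) in the hKLF6 OE mouse with AAI were again at least 0.2 higher in early, against 20.5% and 20.6% of all compared genes. Of the 504 late genes, 425 in each (84.3%) were again late, against 18.4% and 18.4%. Both AAI-treated mice kept 463 early and 397 late genes. Opposite differences of at least 0.2 were found for Egfr (-0.64 and -0.56) and Mgmt (-0.41 and -0.23), a DNA repair enzyme, in both AAI-treated mice, and for Ksr2 in the hKLF6 OE mouse with AAI (0.38).

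Some segment differences were wider with AAI. Slc34a1 differed by 1.62 and 1.79 in the 2 AAI-treated mice, at 54.9 and 47.6 against 31.6, 9.94 and 6.32 in the control and 58.8 and 45.6 against 33.6, 4.16 and 5.35 in the hKLF6 OE mouse. All 5 clusters were lower than without injury in both pairs, with PT-S3-3 the furthest below its uninjured level. Fhit went from 0.59 and 0.43 without injury to 2.37 and 2.27 with AAI, and in the late direction Gramd1b, a sterol transfer protein, went from -0.80 and -1.29 to -2.12 and -2.42. Others were narrower, such as Abcc4 (0.89 and 0.76) and Cntnap5a, a contactin-associated protein, from -1.32 and -1.34 to -0.43 and -0.34. Fhit, Gramd1b and Cntnap5a were chosen after their values were seen. With AAI, S1 and S2 markers had group medians of 1.75 and 1.79. Those of S3 markers were -2.04 and -2.25, against -1.96 and -1.78 without injury, and those of organic anion transporters were -0.61 and -0.74. Glutathione genes had medians of -0.06 and 0.00 without injury and -0.31 and -0.33 with AAI.

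**Figure D5:**
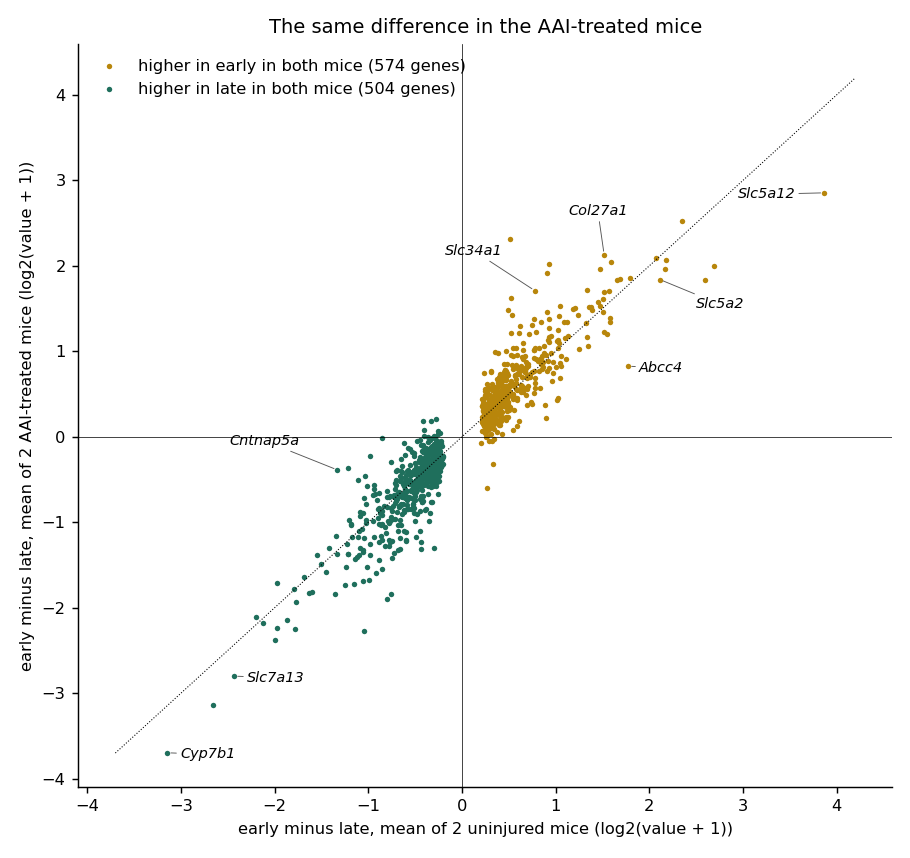
Difference between early and late, in log2(value + 1), of the 1078 genes as the mean of the 2 uninjured mice (horizontal axis) and of the 2 AAI-treated mice (vertical axis), gold for early and green for late genes. Most points lie along the dotted line of equality, with Slc34a1 above it on the early side and Abcc4 below it.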

How the data were processed

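Nuclei from the kidney cortex of 4 mice, 1 per condition, were processed together by the authors. The submitters' processing notes name Cell Ranger, Seurat and the mm10 build, and the study counted reads against pre-mRNA, so that intronic reads contribute. The deposited table holds signal values that the authors made by averaging normalized expression over the nuclei of each cluster in each mouse. The columns sum to about 10000, and the table gives no counts or numbers of nuclei, so no counting error could be computed. Doublet removal and strand use in counting are not given for these data in the sources used here. Cluster names follow the order of the study's marker lists and were held against marker genes, which is not an independent check. Of 19632 gene rows, 23 with symbols turned into dates were left out, and 0 columns of per-sample values were unused.

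The unweighted mean of each segment was formed per mouse and differences were taken as log2(value + 1), with a pseudocount of 1, a minimum of 0.5 in the larger segment mean of both mice, and a threshold of 0.2 in both mice. No test was run: each condition has 1 mouse and the clusters rest on the same values. Genes were named by a rule: the 15 largest in each direction by the smaller of the 2 mice, the largest member of each of 38 gene lists in each direction with further members by role, all segment markers, the genes nearest the threshold, those of opposite sign past it, and the 5 nearest in pattern to Slc5a2 and to Slc7a13. Some genes that this rule names are not reported here. The members and lists were chosen with earlier results of these data known. Alternatives were a pseudocount of 0.1, no minimum or a minimum of 2, thresholds of 0.5 and 1, centring, leaving out each cluster, requiring that clusters not overlap, each mouse alone, and leaving out mitochondrially encoded genes. Calculations used Python 3.11.15, numpy 2.4.6, pandas 2.3.3 and scipy 1.17.1 and plots matplotlib 3.10.9, and the calls were tested on simulated data.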

Additional observations from a re-analysis of the deposited data

Results flagged for a closer look

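Hao2, a hydroxyacid oxidase of peroxisomes, was lower in early than in late proximal tubule of the control mouse, by -0.43 on the log2(value + 1) scale, and higher in early in the hKLF6 OE mouse, by 0.36. It drew attention because the segment difference pointed in opposite directions in the 2 genotypes. The early and late clusters did not overlap in either mouse, and the clusters PT-S3-3 of the control and PT-S1-S2-2 of the hKLF6 OE mouse had the highest levels. The difference between genotypes was not tested, since each had 1 mouse.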

How the results depend on the processing

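Counts of genes higher in early and in late, 574 and 504 as reported, depended most on thresholds. They were 235 and 229 with a minimum segment mean of 2, 169 and 191 with a threshold of 0.5, and 39 and 42 with a threshold of 1. The minimum of 2 also left far fewer genes to compare. Although the counts fell, the share of compared genes that was counted rose in both directions under that minimum. A pseudocount of 0.1 gave 920 early genes, while the late count of 752 stayed within 1.5 times the reported one. Under the other settings both counts stayed within 1.5 times: 651 and 605 without a minimum, 551 and 526 after centring, 506 and 386 when clusters could not overlap, 688 and 659 in the control mouse alone, 784 and 592 in the hKLF6 OE mouse alone, where the minimum was also applied to that mouse only, and 586 and 502 without mitochondrially encoded genes. Leaving out 1 cluster gave between 395 and 739 early and between 388 and 641 late genes. Of 78 named genes followed through these settings, 2 changed sign. Slc23a1 had a mean difference of 0.0485 without PT-S3-2 against -0.45. Hao2, which was not counted and has opposite signs in the 2 mice, had -0.04 as reported, 0.07 without PT-S1-S2-1, 0.06 without PT-S3-3 and 0.36 in the hKLF6 OE mouse alone. Among other genes the report names, Slc34a3, Fxyd2, Atp1b1, Slc22a2, Abcd3, Hsd17b4, Hnf4g, Pth1r, Cdh1, Cdh16, Gstt1, Gsta2, Spp1 and Kap were not counted without PT-S1-S2-1. The same held for Gpx1 (0.10 and 0.08 in that setting), Emx2, Klf9, Tspan3, Gm26699 and Slc6a20a. Without PT-S3-2, beside the genes given above, Abcc2 (-0.48 and -0.11), Ggt1 (-0.33 and -0.16), Cyp4a10 and Slc37a4 were not counted. Egfr, Pth1r, Tspan3 and Gm26699 were not counted in that setting either, and Slc10a2 did not pass the filter. No paired analysis was possible because no test was run, and early and late were in each case compared within the same mouse. Low genes are damped by the added 1, and without counts their precision is unknown.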
